A study of Mus musculus with 12 samples.

Results

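Expression of 10 genes of the small leucine-rich proteoglycan family was described in cultured mouse rib cartilage cells: Bgn (biglycan), Dcn (decorin), Aspn (asporin), Fmod (fibromodulin), Lum (lumican), Prelp, Omd (osteomodulin), Ogn (osteoglycin), Epyc (epiphycan) and Chad (chondroadherin). The members were chosen by gene symbol, and all 10 were found among the 17922 genes of the deposited table. RNA was sequenced from 12 samples in 4 groups of 3. The LDH knockout (Col2-Cre, Ldha fl/fl, Ldhb+/-) and its control come from mice at postnatal day P5. The Acly knockout (Col2-Cre, Acly fl/fl) and its control come from E18.5 embryos. Ldha and Ldhb encode the subunits of lactate dehydrogenase, which converts pyruvate to lactate, and Acly encodes the enzyme that makes cytoplasmic acetyl-CoA from citrate. Knockouts and controls were littermates on a mixed, mostly C57BL/6 background. All groups share collagenase digestion of rib cartilage and overnight culture in serum, so the RNA is that of freshly plated cells and not of intact cartilage. Col2-Cre acts in cells that have used the collagen II promoter, so other cells of the rib keep the floxed genes. Whether the controls carried Cre or floxed alleles, and whether a sample is 1 animal or a pool, is not given in the sources used here, so p-values measure the spread between these samples, which may be technical in part.

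Small leucine-rich proteoglycans are secreted proteins built from a curved array of leucine-rich repeats, many of which carry chondroitin, dermatan or keratan sulfate chains. Most bind fibril-forming collagens and set how fibrils grow and pack, and several also hold growth factors such as TGF-β in the matrix. In cartilage they coat the fibrils around the cells, and mice that lack biglycan and other members of the family develop weak bones, tendons or joints. The members were grouped here by class. Bgn, Dcn and Aspn form class I, Fmod, Lum, Prelp and Omd class II, Epyc and Ogn class III, and Chad is a class IV member without glycosaminoglycan chains.

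The genes of the family lie in clusters. By the order of RefSeq genes (assembly GRCm38.p6), Prelp and Fmod are neighbours on chromosome 1, with Optc beside Prelp. Dcn, Lum, Kera and Epyc follow each other on chromosome 10. Ecm2, Aspn, Omd and Ogn do so on chromosome 13, with 0 protein-coding genes listed between neighbours in any of these runs. Chad is on chromosome 11 and Bgn on the X chromosome. The 250 bases before the RefSeq start of Aspn (chr13:49544193-49544442), Omd (chr13:49582212-49582461) and Ogn (chr13:49607765-49608014), all on the plus strand of GRCm38.p6, are shown because these 3 neighbours had unlike profiles in the LDH knockout. They are written 5′ to 3′, and capitals mark the letters TATAAA (the core of a TATA box) or AACAAT (letters recognised by SOX-family factors) on either strand.
Aspn: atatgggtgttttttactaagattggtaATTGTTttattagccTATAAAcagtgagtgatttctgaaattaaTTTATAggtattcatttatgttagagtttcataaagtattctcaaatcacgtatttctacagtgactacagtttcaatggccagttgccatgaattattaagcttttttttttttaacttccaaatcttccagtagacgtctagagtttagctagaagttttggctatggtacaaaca
Omd: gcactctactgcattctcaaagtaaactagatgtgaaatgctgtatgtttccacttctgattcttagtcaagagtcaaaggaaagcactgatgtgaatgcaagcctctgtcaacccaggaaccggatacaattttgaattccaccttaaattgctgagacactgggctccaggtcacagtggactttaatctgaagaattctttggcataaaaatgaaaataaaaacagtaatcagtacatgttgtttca
Ogn: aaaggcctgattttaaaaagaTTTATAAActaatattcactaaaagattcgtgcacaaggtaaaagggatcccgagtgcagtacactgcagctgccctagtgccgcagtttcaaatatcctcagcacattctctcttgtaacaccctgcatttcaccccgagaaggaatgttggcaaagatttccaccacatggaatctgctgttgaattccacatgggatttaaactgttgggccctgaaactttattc
The Aspn window holds TATAAA 2 times and AACAAT 1 time. The Ogn window holds TATAAA 2 times, as overlapping matches of both strands, and the Omd window holds neither. G and C made up 30% of the Aspn, 38.4% of the Omd and 42% of the Ogn window. The RefSeq promoter table has entries for 8 of the 10 members, and TATAAA was found before Aspn, Chad and Ogn and AACAAT before Aspn, Epyc and Prelp. Over all 32851 promoters of the same length, 12.4% held TATAAA and 9.42% held AACAAT. These matches describe the letters only.

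Depth was even, at 26362407 to 28154143 expected counts per sample, where 3 counts correspond to 0.107 to 0.114 counts per 1000000 (CPM). Ldha was at 94.4 to 112 transcripts per 1000000 (TPM) in the LDH knockouts against 997 to 1047 in their controls, and Acly was at 19.7 to 36.6 TPM in the Acly knockouts against 83 to 87.4 (2-sided exact permutation p = 0.1 for each, the smallest that 3 against 3 samples allow). Ldhb, of which the LDH knockouts lack 1 allele, was at 22.1 to 24.3 TPM against 16.8 to 19.4 in controls. Of the cartilage markers, Col2a1 was at 2097 to 8605 TPM in the 12 samples, Acan at 169.6 to 538, Sox9 at 245 to 397 and Col11a1 at 107 to 408. Snorc was at 61.3 to 373, Hapln1 at 39 to 176, Col9a1 at 24 to 216 and Comp at 6.89 to 131 TPM. The cartilage matrix genes Matn3, at 1.83 to 12.5 TPM, and Matn1, at 0 to 0.24 TPM in the LDH set and 1 to 5.89 TPM in the Acly set, were low. Markers of other cells were also detected, and bulk RNA does not show which cells they came from. The 10 markers of perichondrial and fibroblast cells summed to 71.3 to 162 TPM in the LDH set and 348 to 1406 TPM in the Acly set. Summed CPM of 4 Y-linked genes was below 10 in all 3 LDH knockouts and in LDH control 3, and was 93 and 102 in LDH controls 1 and 2, so genotype and Y-linked signal are partly confounded in the LDH set. In the Acly set it was above 10 in knockouts 2 and 3 and in control 2.

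Bgn was the most abundant of the 10 genes and Dcn the second in every group. On the per-length TPM scale Bgn averaged 1104 ± 287 (SD, n = 3) for the LDH controls and 1214 ± 176 for the LDH knockouts, and 1884 ± 129 and 1753 ± 226 for the controls and knockouts of the Acly set. Dcn averaged 365 ± 132, 437 ± 94.8, 834 ± 102 and 429 ± 150.2 TPM in the same order. In no group did the samples of Bgn and Dcn overlap, nor those of Dcn and the next gene. Bgn alone made up 53.6% to 69.8% of the summed TPM of the 10 members, which ran from 1255 in LDH control 2 to 3768 in Acly control 2. The middle of the order was not resolved. In LDH controls Ogn (60.7 ± 7.4 TPM), Epyc (50.9 ± 19.8), Lum (46.8 ± 14.8), Prelp (40.2 ± 12.1) and Chad (39.5 ± 9.31) each overlapped the next in line, down to Fmod (22.7 ± 8.53). In Acly controls Lum (241 ± 49.3 TPM) and Epyc (125 ± 25.1) came next without overlap, and Ogn, Fmod, Chad and Prelp, with means of 66.9 to 79.3 TPM, followed with overlapping samples. At the low end the order of the last members differed between the sets. Aspn was lowest in LDH controls at 2.27 ± 0.705 TPM with Omd above it at 5.37 ± 0.355, and Omd was lowest in Acly controls at 7.91 ± 2.2 TPM with Aspn above it at 31.3 ± 9.01.

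**Figure D1:**
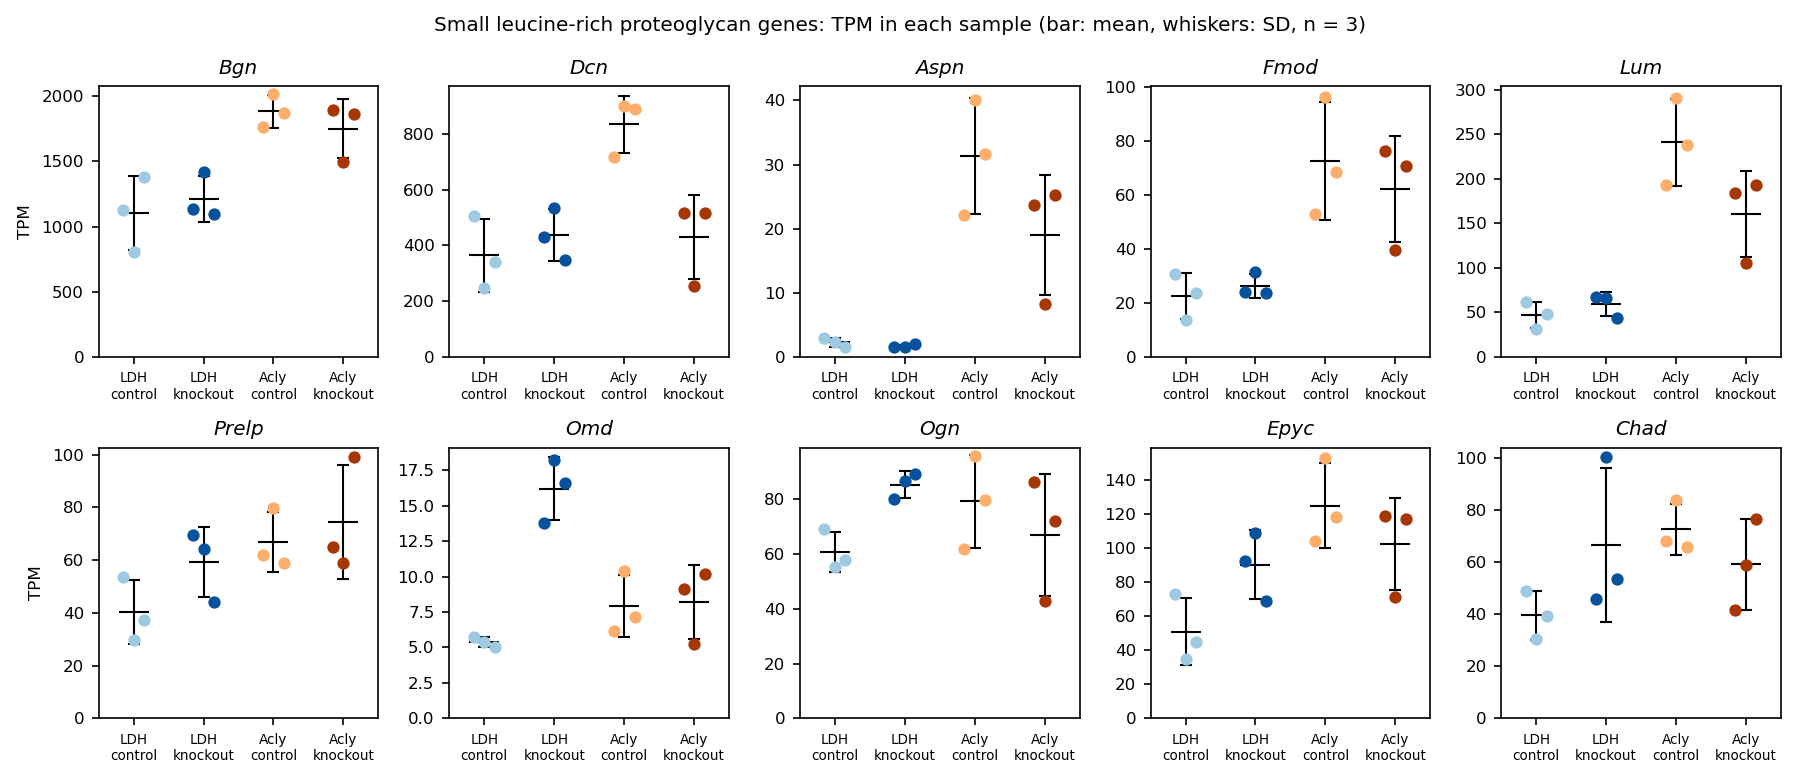
TPM of each member (y axis, from 0, own scale per gene) in the 3 samples of each group (x axis). Points are samples, replicates 1 to 3 from the left, horizontal bars are means and whiskers are SD. Omd separates the LDH knockouts (13.8 to 18.2 TPM) from their controls (5.01 to 5.72), Dcn separates the Acly knockouts (256 to 517) from theirs (716 to 899), and Aspn is at 1.58 to 2.99 TPM in all LDH-set samples.

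In the LDH knockout Omd and Ogn were called higher, and no member was called lower. Omd was 3.09-fold and Ogn 1.43-fold its control level. Both were called at an adjusted p under 0.05 in edgeR's quasi-likelihood test across all 13321 genes with Benjamini-Hochberg adjustment, which calls 1.43% of all genes higher and 1.07% lower (2.49% in either direction). All 10 members passed the filter on low counts, here and in the other comparisons. The log2 fold change was above 0 for 9 members, against 51.0% of all genes tested, with a median of 0.44 over the members and 0.01 over all genes. An unadjusted p under 0.05 was reached by 5 members, all higher, against 9.79% of all genes higher and 9.83% lower. Knockout and control samples did not overlap for 2 members, Omd and Ogn, against 24.3% of all genes. 

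Omd, a keratan sulfate proteoglycan that binds bone mineral and is named for its abundance in bone, was at 13.8, 18.2 and 16.6 TPM in LDH knockouts 1 to 3 and at 5.72, 5.39 and 5.01 TPM in controls 1 to 3. Every knockout lay above every control. In CPM the means were 16.1 ± 2.22 and 5.21 ± 0.514 (SD, n = 3 each), and the log2 fold change was 1.63 (SE 0.15, 95% interval 1.30 to 1.96, edgeR adjusted p = 0.00194). Omd kept its call when any 1 of the 6 libraries was left out. With the Y-linked class as a covariate its log2 fold change was 1.73 (edgeR adjusted p = 0.0653), and among the 4 libraries with low Y-linked signal it was 1.73. That restriction leaves LDH control 3 as the only control, assumed to vary like the knockouts. The covariate fit also sets the knockouts against control 3 alone, since no knockout shares the class of controls 1 and 2. The 2 fits are therefore not separate checks. Over its 17 alternatives the adjusted p of Omd ran from 2.55e-18 to 0.0653, with log2 fold changes of 1.32 to 1.73. Omd is also the member whose deposited expected counts are not whole, in 12 of 12 samples, while those of the other members are whole in all. It overlaps Cenpp on the opposite strand in the GENCODE annotation of GRCm38, as do Aspn and Ogn. Cenpp itself was too low to be tested in the LDH set, and whether the counting used strand is not given in the sources used here.

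Ogn, whose product takes part in collagen fibril growth and is found in bone, heart and vessel wall, was at 107, 119 and 117 CPM in LDH knockouts 1 to 3. Its controls 1 to 3 were at 89.5, 69.8 and 80.0 CPM, all below the lowest knockout. The log2 fold change was 0.52 (SE 0.10, 95% interval 0.30 to 0.74, edgeR adjusted p = 0.0273). This call was weaker than that of Omd. It was lost without LDH knockout 1 (adjusted p = 0.0699), without knockout 2 (0.0981), without control 2 (0.078) and without control 3 (0.0784), with edgeR log2 fold changes of 0.43 to 0.57. It was also lost with all 12 samples in the fit (0.52, adjusted p = 0.142) and with the Y-linked class as a covariate (0.51, 0.191). The covariate fit rests on control 3 alone, as does that of libraries of low Y-linked signal (0.52). Over its 17 alternatives the adjusted p of Ogn ran from 0.000228 to 0.191. The number of members called was therefore 1 without each of those 4 libraries, 3 without LDH control 1, 4 without LDH knockout 3, and 0 with the Y-linked class as a covariate. Calls over all genes moved too, from 332 to between 95 and 154 without each of those 4 libraries and to 132 without control 1. They were 1068 without knockout 3 and 4 with the covariate.

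Aspn, also on the same stretch of chromosome 13, had the opposite sign. Its product binds collagen and restrains TGF-β, and it was at 1.96, 2.01 and 2.34 CPM in LDH knockouts and 3.58, 2.61 and 2.03 CPM in controls. The samples overlap, and the log2 fold change was -0.38 (95% interval -0.94 to 0.17, edgeR adjusted p = 0.432). It became 0.05 with the Y-linked class as a covariate, a fit that rests on control 3, the lowest control. Ecm2, the other family gene of this cluster, was at 1.8 ± 0.184 against 1.22 ± 0.461 CPM (n = 3 each, log2 fold change 0.56, edgeR adjusted p = 0.346).

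Epyc, an epiphyseal cartilage proteoglycan of the growth plate, had the largest log2 fold change among members that missed the threshold, at 0.86 (95% interval 0.29 to 1.43, edgeR adjusted p = 0.107). Its samples were at 82.8, 99.9 and 60.0 CPM in LDH knockouts and 63.0, 29.3 and 41.6 CPM in controls, and control 1 lies above knockout 3. Without knockout 3 the value was 1.03 with an adjusted p of 0.0411, and without control 1 it was 1.19 with an adjusted p of 0.0425 (edgeR, range over all alternatives 0.0411 to 0.325). Chad, a cartilage protein that binds cells through an integrin, was at 39.0, 88.0 and 44.6 CPM against 40.5, 24.5 and 34.8 CPM. Knockout 2 stood well above the rest, and the log2 fold change was 0.78 (95% interval 0.14 to 1.42, edgeR adjusted p = 0.172), or 0.33 without that library (adjusted p = 0.495). Chad overlaps Acsf2 on the opposite strand, and Acsf2 was level, at 30.5 ± 0.963 against 30.6 ± 0.967 CPM.

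The remaining class II members were not called. Prelp, which links collagen to the heparan sulfate of basement membranes, was at 82.2 to 132 CPM in LDH knockouts and 53.3 to 98.5 CPM in controls. Its log2 fold change was 0.59 (95% interval 0.10 to 1.09, edgeR adjusted p = 0.18), and 0.78 with an adjusted p of 0.0493 without knockout 3 (range over all alternatives 0.0493 to 0.462). Lum and Fmod compete for sites on collagen and regulate fibril thickness. Lum was at 46 to 73.6 against 32.5 to 64.2 CPM (log2 fold change 0.36, 95% interval -0.18 to 0.89), and Fmod at 34.7 to 48.7 against 19.6 to 44.9 CPM (0.24, -0.32 to 0.80). Samples overlapped for each of these genes. Without control 2 the values were 0.12 for Lum and -0.04 for Fmod, and without knockout 2 that of Fmod was 0.08.

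The abundant class I members did not pass the test in the LDH comparison, and their intervals include changes in either direction. Bgn was at 1443, 1850.3 and 1361 CPM in LDH knockouts and 1389, 972 and 1819.5 CPM in controls. Its log2 fold change was 0.15 (95% interval -0.30 to 0.61, edgeR adjusted p = 0.72). The sign rested on control 2, without which it was -0.05. With the Y-linked class as a covariate it was -0.23, in a fit that rests on control 3, the highest control. The gene is X-linked. Dcn was at 419.9, 536 and 331 CPM against 479, 228 and 346 CPM (log2 fold change 0.29, 95% interval -0.26 to 0.84, edgeR adjusted p = 0.554). With 1 library left out its value ran from 0.05 without control 2 and 0.10 without knockout 2 to 0.58 without control 1.

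Libraries of 1 group tended to be high or low for many members at once. LDH control 2 was the lowest control for 8 of the 10 members, the exceptions being Omd and Aspn, and LDH control 1 was the highest for 9. Among LDH knockouts, knockout 2 was the highest for 8 members. In the Acly set, knockout 2 was the lowest knockout for 8 members, the exceptions being Prelp and Chad, control 1 the lowest control for 8, and control 2 the highest for 9. Values of the members in a library are therefore not independent of each other.

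**Figure D2:**
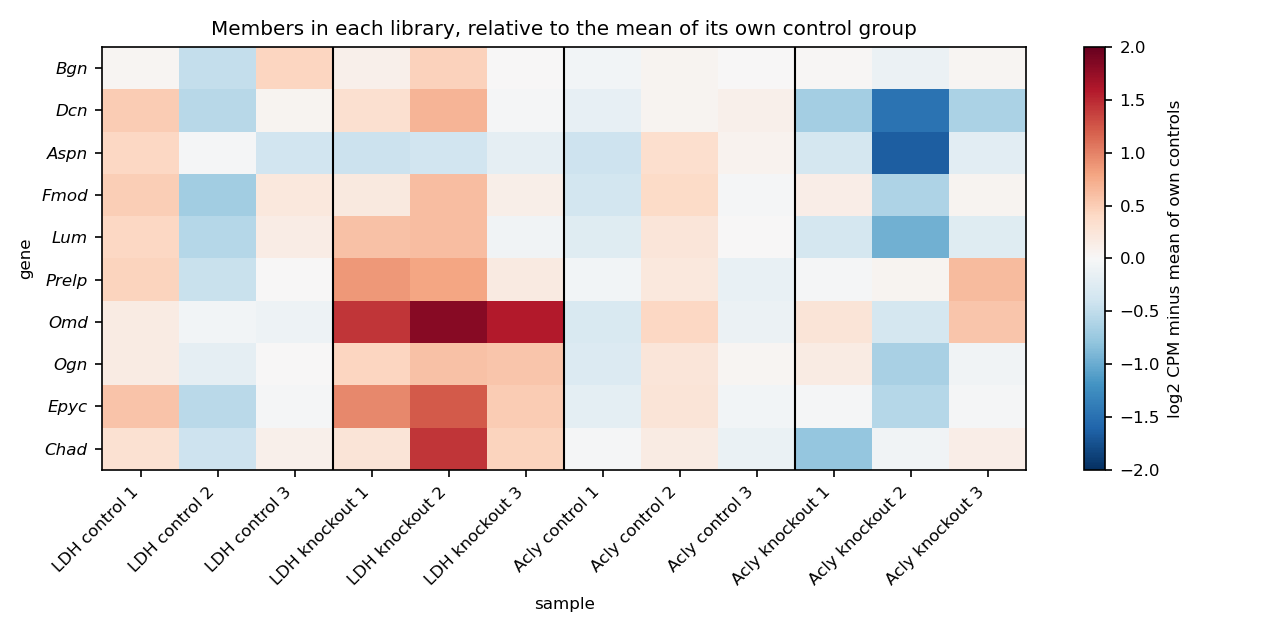
Log2 CPM of each member (rows) in each library (columns) minus the mean of the library's own control group, with red above and blue below it on a scale from -2 to 2. Omd is red in the 3 LDH knockouts, LDH control 2 is blue for most rows, and Acly knockout 2 is the bluest column, with Dcn and Aspn lowest.

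Cell markers moved with the LDH comparison. Cartilage markers were higher in the knockouts, with 6 of 9 tested called higher, against 1.43% of all genes. They summed to 7195 to 10335 TPM, against 4064 to 4592 in controls. Fat cell markers were called higher for 5 of 6 tested, and summed to 38.6 to 131 against 9.91 to 11.5 TPM. Bone-forming markers were called lower for 2 of 5 tested (Bglap2 and Sp7), against 1.07% of all genes, with sums of 35.7 to 108 against 194 to 282 TPM. The osteocyte markers Dmp1 and Mepe were at or near 0 in all 6 samples (at most 0.02 TPM). Perichondrial and fibroblast markers were called for 0 of 10 by edgeR, and summed to 71.3 to 96.3 against 96.3 to 162 TPM. At an unadjusted p under 0.05, 4 of them were lower and 0 higher, against 9.83% and 9.79% of all genes. With the Y-linked class as a covariate edgeR called 4 genes of the whole LDH comparison, 1 of them higher, so most of these marker calls were lost. That fit sets the knockouts against LDH control 3 alone. In bulk RNA fewer cells of a type and less RNA per cell cannot be told apart, and the part of these markers in the rise of Omd and Ogn was not tested.

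Genes with the profile most like a member were ranked by the root mean square difference over 12 samples between log2 CPM values, each taken relative to the own control mean, among 10561 genes. For Omd these were Col4a5 (0.19), Col9a1 (0.22) and Colgalt2 (0.23), against a median of 0.87 over all candidates. Col4a5 encodes a basement membrane collagen chain, Col9a1 a chain of the collagen on the surface of cartilage fibrils, and Colgalt2 a collagen galactosyltransferase. For Ogn they were Nedd9 (0.09), Thbs3 (0.12) and Tent5a (0.12), against a median of 0.39.

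In the Acly knockout no member was called. Dcn, Lum and Aspn had the most negative values, while Bgn was level with its controls. The same edgeR test called 0.136% of 13973 genes (0.0573% higher and 0.0787% lower, so 42.1% of the called genes were higher, against 27.3% without TMM scaling). At an unadjusted p under 0.05, 2 members, Dcn and Lum, were lower and 0 were higher, against 8.57% of all genes lower and 7.26% higher. DESeq2 called 1 member, Dcn. The log2 fold change was below 0 for 8 members, with a median of -0.18 over the members and 0.00 over all genes, and was above 0 for 49.7% of all genes. The knockout and control samples of 1 member, Dcn, did not overlap, against 22.0% of all genes.

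Dcn, the proteoglycan whose dermatan sulfate chain bridges neighbouring collagen fibrils and which binds TGF-β, was at 495, 284 and 512 CPM in Acly knockouts 1 to 3. Controls 1 to 3 were at 707, 825 and 851 CPM, so the highest knockout lay below the lowest control. The knockout mean was 54.2% of the control mean, a log2 fold change of -0.88 (SE 0.20, 95% interval -1.35 to -0.42, edgeR adjusted p = 0.179). DESeq2 gave the same -0.88 with an adjusted p of 0.000967. Without Acly knockout 2 edgeR called Dcn lower, at -0.65 with an adjusted p of 0.012, and over all 18 alternatives the value ran from -1.05 to -0.65 and the adjusted p from 0.000967 to 0.7.

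Acly knockout 2 also stood apart in its fibroblast and tendon marker sums. The 10 perichondrial and fibroblast markers, Col3a1 and Postn among them, summed to 1072, 348 and 1078 TPM in Acly knockouts 1 to 3. In controls they summed to 1116, 1406 and 1169.8 TPM. EdgeR called 0 of the 10. At an unadjusted p under 0.05, 1 was lower and 0 higher, against 8.57% and 7.26% of all genes. Tendon markers summed to 459.6, 169.8 and 465 against 593, 620.1 and 591 TPM, with 0 of 5 called by edgeR and 0 at an unadjusted p under 0.05. Thbs4 made up most of that sum, at 429, 129 and 427 TPM in knockouts, while Scx was highest in knockout 2 (19.2, 39.2 and 28.8 TPM against 21.4, 23.1 and 27.6). None of these markers was at 0 in the Acly set. Muscle markers were also lowest in knockout 2 (193, 85.5 and 255 TPM in knockouts 1 to 3). Bone-forming markers split, with the highest sum of the knockouts there (222, 278 and 188 TPM). Bglap, Bglap2 (76, 129 and 69.9 TPM) and Sp7 were highest in knockout 2. Ibsp (51.2, 27.4 and 29.9 TPM), Runx2 (20.9, 16.8 and 22.1) and Phex were lowest in it. In fat cell (144, 65.5 and 61.3 TPM), endothelium (50.5, 49.7 and 59.5) and white blood cell markers (201, 179 and 199) knockout 2 did not stand apart. Cartilage markers summed to 5840.3 to 6639 TPM in knockouts and 3467 to 4117 TPM in controls. Of the 10, 2 were called higher (Col2a1 and Comp), against 0.0573% of all genes. Most of the sum was Col2a1 (4059, 4360.2 and 4586 TPM in knockouts 1 to 3). Knockout 2 was the lowest knockout for Col9a1 (188, 101 and 216 TPM), Hapln1 (158, 87 and 148) and Col11a1 (408, 250.2 and 374). It was also lowest for Matn1, Matn3 and Comp, but not for Col2a1, Acan, Sox9 or Snorc. The part of any of these markers in the Dcn values was not tested.

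Lum, in the same chromosome 10 cluster as Dcn, was at 196, 129 and 212 CPM in Acly knockouts and 211, 296 and 252 CPM in controls. Control 1 lay just below knockout 3, the only overlap, and the log2 fold change was -0.50 (95% interval -0.93 to -0.07, edgeR adjusted p = 0.282). Epyc, of the same cluster, was at 72.1 to 105 against 94 to 128 CPM (-0.20, 95% interval -0.58 to 0.18). Aspn was at 28.8, 11.6 and 31.5 CPM against 27.5, 46.4 and 38.3 CPM. Knockout 2 was again the lowest sample, and the log2 fold change was -0.64 (95% interval -1.39 to 0.11, edgeR adjusted p = 0.364), or -0.31 without that library.

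Bgn was the member with the narrowest interval in the Acly comparison. Its samples were at 2379, 2156 and 2402 CPM in knockouts and 2261, 2412 and 2336 CPM in controls. Its log2 fold change was -0.01 (95% interval -0.22 to 0.19, edgeR adjusted p = 0.941). The TPM ratio of Bgn to Dcn, a comparison chosen after the values were seen, was 3.69, 5.84 and 3.61 in Acly knockouts and 2.46, 2.25 and 2.11 in controls. It averaged 4.38 ± 1.26 against 2.27 ± 0.177 (SD, n = 3 each) without overlap (2-sided exact permutation p = 0.1, the smallest possible). In the LDH set the ratio was 2.64, 2.64 and 3.15 in knockouts and 2.22, 3.28 and 4.03 in controls, and the samples overlapped (exact permutation p = 0.6).

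**Figure D3:**
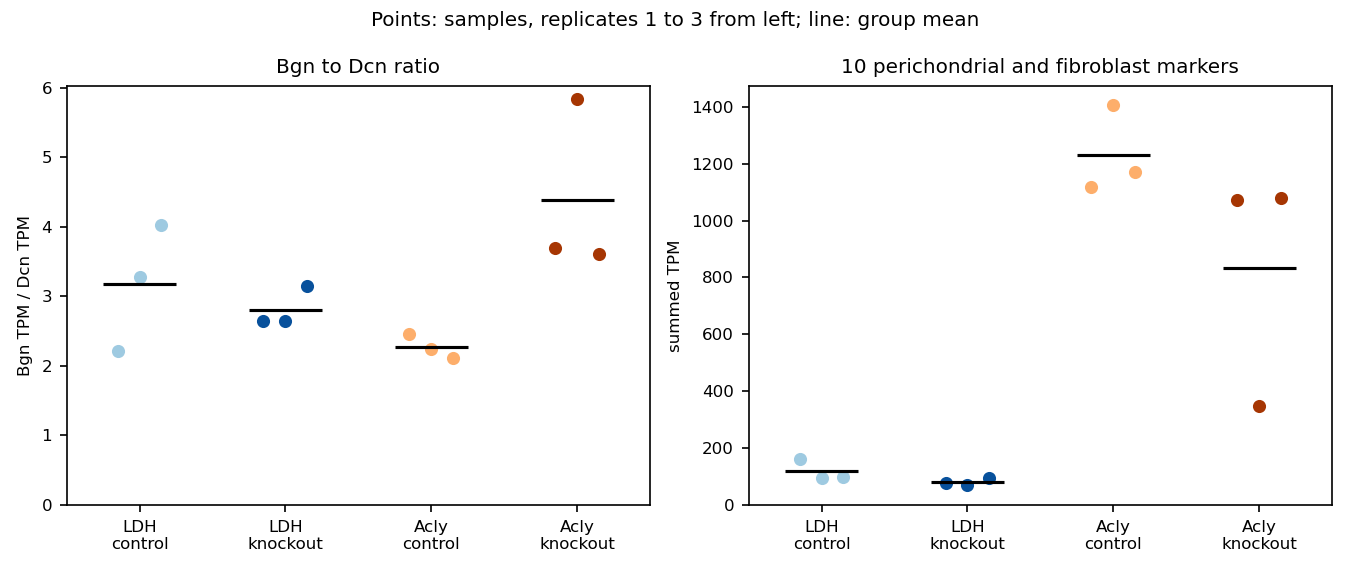
Left, the ratio of Bgn TPM to Dcn TPM in each sample (y axis), and right, the summed TPM of 10 perichondrial and fibroblast markers, by group (x axis), with points for samples and lines for group means. The Acly knockouts have ratios of 3.61 to 5.84 above all Acly controls (2.11 to 2.46), and the sample with the highest ratio, knockout 2, has the lowest marker sum of its set (348 TPM).

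The other members were not called in the Acly knockout, and their intervals include changes in either direction. Omd was at 8.77, 5.76 and 10.8 CPM against 5.96, 9.86 and 6.74 CPM, a log2 fold change of 0.17 (95% interval -0.43 to 0.77, edgeR adjusted p = 0.756) whose sign turned to -0.05 without knockout 3. Ogn was at 113, 64.9 and 97.2 against 83.6, 120.4 and 104 CPM (-0.16, 95% interval -0.62 to 0.30). Prelp was at 121 to 191 against 111 to 142 CPM (0.24, -0.16 to 0.65). Fmod was at 67.8 to 113 against 80.6 to 136 CPM (-0.14, -0.65 to 0.37), and Chad at 34.9 to 66.2 against 55.1 to 67.1 CPM (-0.19, -0.66 to 0.27). Knockout and control samples overlapped for all 5 genes. 

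**Figure D4:**
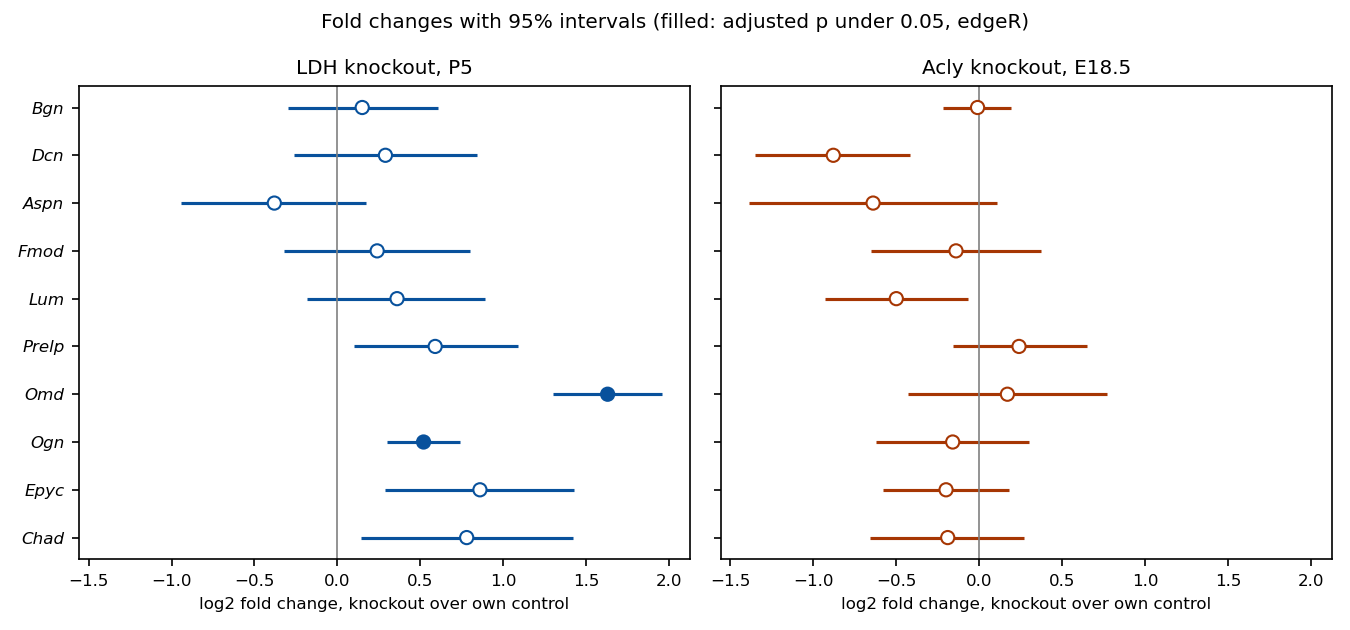
Log2 fold change of each member (rows) in the LDH knockout at P5 (left) and the Acly knockout at E18.5 (right) over its own control, with 95% intervals and filled points at an edgeR adjusted p under 0.05. Omd (1.63) and Ogn (0.52) are the filled points, both in the LDH panel, and Dcn (-0.88) is the lowest point of the Acly panel.

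No member's change differed between the knockouts past the threshold when the difference itself was tested in 1 fit of all 12 samples (edgeR). That test called 0.161% of 14251 genes, and age, deleted gene and mouse line differ together between the sets. An unadjusted p under 0.05 was reached by 6 of the 10 members, all with the larger value in the LDH knockout, against 7.29% of all genes in that direction. Omd had the largest difference of log2 fold changes, at 1.47 (95% interval 0.76 to 2.18, adjusted p = 0.102), and DESeq2 called 1 member, Omd. Dcn followed at 1.18 (0.38 to 1.99, adjusted p = 0.246) and Epyc at 1.07 (0.30 to 1.84, adjusted p = 0.268). Chad (0.99), Lum (0.87) and Ogn (0.69) were the other three.

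The largest contrasts among the members were between the control groups. Aspn, Lum, Fmod, Epyc, Dcn and Bgn were higher in the E18.5 controls of the Acly set than in the P5 controls of the LDH set, and no member was called lower. All genes gave many calls in this comparison too, 55.0% of those tested, with 29.4% higher and 25.7% lower in the Acly controls (53.3% of the calls higher, against 72.4% without TMM scaling, which moves the median of all genes from 0.02 to 0.19). Age, line and any library batch coincide with the sets and cannot be told apart.

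Scaled over all 12 samples, Aspn was at 35.5 ± 8.93 CPM in Acly controls and 2.9 ± 0.844 CPM in LDH controls (n = 3 each), 12.2-fold (log2 difference 3.61, 95% interval 2.85 to 4.37, edgeR adjusted p = 3.33e-06). Lum was 4.54-fold higher (2.18, 1.62 to 2.74), Fmod 2.82-fold (1.5, 0.88 to 2.11), Epyc 2.18-fold (1.12, 0.57 to 1.67) and Dcn 2.03-fold (1.02, 0.45 to 1.59). Bgn was 1.51-fold higher (0.59, 0.21 to 0.97, edgeR adjusted p = 0.0115). Prelp (0.56, adjusted p = 0.0545) and Chad (0.70, adjusted p = 0.0536) just missed the threshold in edgeR, and passed it under 12 and 10 of the 21 alternatives. Samples did not overlap for those 8 members, against 34.7% of all genes higher without overlap. Omd (0.37, adjusted p = 0.198) and Ogn (0.21, adjusted p = 0.342), the members called in the LDH knockout, overlapped between the control groups. Summed fibroblast, tendon and muscle markers were also higher in the Acly controls. Their sums were 96.3 to 162, 61.3 to 75.8 and 9.26 to 17.5 TPM in LDH controls and 1116 to 1406, 591 to 620.1 and 247 to 315 TPM in Acly controls. So were sums of endothelium (5.02 to 8.96 in LDH against 49.3 to 54.7 TPM in Acly controls) and fat cell markers (9.91 to 11.5 against 42.9 to 113). Sums of bone-forming and hypertrophic cartilage markers were higher too. Those of cartilage, white blood cell and superficial or articular markers overlapped. The part of these markers in the members' difference was not tested. Most of the tendon sum in Acly controls was Thbs4 (554 to 584 TPM), while the tendon transcription factor Scx was called lower there (log2 difference -1.05, edgeR adjusted p = 0.00276).

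Of the other genes of the family, Chadl (chondroadherin-like, a cartilage protein that binds collagen) was the one that passed the test in a knockout comparison. It was called higher in the LDH knockout, at 52.5, 54.2 and 50.9 CPM against 34.3, 29.1 and 41.9 CPM (log2 fold change 0.58, SE 0.12, edgeR adjusted p = 0.0384). In the Acly knockout it was at 35.9, 40.4 and 47.1 against 22.2, 25.3 and 17.3 CPM, again without overlap (0.93, SE 0.16, edgeR adjusted p = 0.0859). In the LDH set 6 of the 9 other family genes could be tested and 1 was called, against 2.49% of all genes. In the Acly set 7 could be tested and 0 were called, against 0.136% of all genes. At an unadjusted p under 0.05, 1 was higher and 1 lower there, against 7.26% and 8.57% of all genes. Tsku (log2 fold changes of 0.20 in the LDH and 0.20 in the Acly comparison), Podn (-0.21 and 0.07), Podnl1 (0.31 and -0.69) and Optc (-0.02 and 0.41) were not called in either. Ecm2 and Kera, the latter a corneal and tendon keratan sulfate proteoglycan too low to test in the LDH set, each had -0.51 in the Acly comparison. Nyx and Nepn, at no more than 7 counts in any sample, were not tested. Between the control groups Podn (log2 difference 1.03) and Ecm2 (1.39) were called higher in the Acly controls, as was Kera at counts near the floor in LDH controls, and Tsku (-1.59), Chadl (-0.85) and Optc (-0.76) were called lower.

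Of 16 collagens that the family binds, 8 were called higher and 1 lower in the LDH knockout, against 1.43% and 1.07% of all genes. Those called higher were Col2a1 (log2 fold change 1.02), Col9a1 (1.55), Col9a3 (0.74), Col11a1 (1.21), Col11a2 (0.95), Col6a1 (0.61), Col6a2 (1.01) and Col6a3 (0.57). Col1a2, a chain of the collagen of bone and fibrous tissue, was called lower at -1.0 (edgeR adjusted p = 0.0196). Col9a2 (0.89, edgeR adjusted p = 0.0521), Col1a1 (-0.85, adjusted p = 0.0791) and Col14a1 (-1.02, adjusted p = 0.199) missed the threshold. So did Col3a1 (-0.45), Col5a1 (0.34), Col5a2 (0.66) and Col12a1 (0.51). With the Y-linked class as a covariate 4 genes of the whole LDH comparison were called by edgeR, 1 of them higher, so most of these collagen calls were lost. That fit sets the LDH knockouts against control 3 alone. With the covariate edgeR called 0 genes of the Acly comparison. In the Acly knockout 2 of 16 were called, Col2a1 (1.05) and Col9a3 (0.75), both higher, against 0.0573% of all genes. Col1a1 (-0.26), Col1a2 (-0.39), Col3a1 (-0.81) and Col6a1 (0.02) were not called there. The median over the list was 0.63 in the LDH and 0.06 in the Acly comparison, against 0.01 and 0.00 over all genes, and these lists were written with earlier results of these samples known.

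Enzymes that build the sulfated chains of these proteoglycans mostly did not pass the test. Of 24 tested in the LDH set 0 were called higher and 1 lower, against 1.43% and 1.07% of all genes. The 1 called was Chsy1, a chondroitin synthase, at 72.8 ± 1.27 against 131 ± 10.8 CPM (n = 3 each, log2 fold change -0.85, SE 0.08, edgeR adjusted p = 0.00194). Xylt1, which attaches the first sugar of a chain to the core protein, was at 40.7 ± 4.97 against 24.4 ± 6.13 CPM (0.74, adjusted p = 0.0547). Csgalnact1 (0.15), Chst11 (0.16) and the dermatan sulfate epimerase Dse (0.16) were not called. In the Acly set edgeR called 0 of 25. At an unadjusted p under 0.05, 2 were higher and 2 lower, against 7.26% and 8.57% of all genes. The values were 0.07 for Xylt1, 0.29 for Csgalnact1, 0.02 for Chst11, -0.34 for Dse and -0.10 for Chsy1.

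Of the growth factors and receptors that the family binds or modulates, 2 of 18 tested were called in the LDH set, against 2.49% of all genes, with a median log2 fold change of 0.07. Ctgf, a matricellular growth factor that binds decorin, was called higher (469.9 ± 95.9 against 193 ± 10 CPM, log2 fold change 1.29, edgeR adjusted p = 0.00357) and Bmp4 lower (-0.79, adjusted p = 0.0404). In the Acly set 1 of 18 was called, against 0.136% of all genes. Met, a growth factor receptor to which decorin binds, was called lower (32.1 ± 3.4 against 68.2 ± 2.55 CPM, -1.09, edgeR adjusted p = 0.00722). The log2 fold change was below 0 for 16 of the 18 in the Acly set, with a median of -0.35. Over all genes tested the median was 0.00, and 49.7% had a value above 0. At an unadjusted p under 0.05, 7 of the 18 were lower and 0 higher, against 8.57% and 7.26% of all genes. Tgfb1 was not called in either comparison (0.12 and 0.09). Of 11 proteases that process or cleave these proteins edgeR called 0 in either set. At an unadjusted p under 0.05, 1 was higher and 3 lower in the LDH set, against 9.79% and 9.83% of all genes. In the Acly set 0 were higher and 4 lower at that threshold, against 7.26% and 8.57% of all genes. Bmp1, which trims the biglycan propeptide, had 0.11 and -0.20, and the collagenase Mmp13 had 0.32 and, at 62.1 ± 11.6 against 132 ± 24.4 CPM, -1.09 (edgeR adjusted p = 0.0694).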

How the data were processed

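RNA-seq of poly(A)-selected RNA from 12 samples was used as 1 deposited table of 17922 genes, with Entrez identifiers and symbols. Per the submitters' processing notes, HISAT2 2.0.4 and build mm9 were used, and the counting program, annotation and use of strand are not given in the sources used here. The deposited read counts, 7.32% to 8.16% of them not whole, were treated as the authors' expected counts and rounded. The FPKM values deposited by the authors served an alternative test, and the deposited TPM values served to compare levels between genes. The table held 0 other columns of per-sample values. Symbols turned into dates or duplicated, 28 in all, were restored from the identifiers.

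Knockouts were tested against their own controls, 6 samples a fit, in edgeR 4.0.16 (R 4.3.3) with TMM scaling, filterByExpr, 2-sided quasi-likelihood F tests, and Benjamini-Hochberg adjustment over all genes tested with a threshold of 0.05. The difference of effects and the comparison of control groups used 1 fit of all 12 samples. CPM are TMM-scaled within a fit, and a standard error is the log2 fold change divided by the square root of F. Alternatives used DESeq2 1.42.0, limma 3.58.1 on log2(FPKM + 1) and log2(FPKM + 0.1), other scalings and filters, the replicate number as a block, the Y-linked class (above or below 10 CPM) as a covariate or a restriction, and each replicate left out. The script was tested on simulated data. All 66 pairs of libraries differed by more than sampling noise. The floor of 3 counts covers counting error only, since reads carry no named molecular identifiers.

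The members and lists were chosen with earlier results of these data known. Named were the members, the targeted genes, the other family genes, list genes that were called, list genes chosen by name (Xylt1, Csgalnact1, Chst11, Dse, Col1a1, Col1a2, Col2a1, Col3a1, Col6a1, Tgfb1, Bmp1, Mmp13) and the 3 genes most like each called member among those averaging 5 CPM or more. Marker genes, the overlapping genes Cenpp and Acsf2, the other listed collagens in the LDH set, and Chsy1 in the Acly set are given as context. RefSeq and GENCODE tables of GRCm38, another build than mm9, gave promoter sequences, gene order and overlaps only.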

Additional observations from a re-analysis of the deposited data

How the results depend on the processing

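The restriction to samples of low or high Y-linked signal was added after seeing the data. For all genes, the 332 calls of the LDH comparison became 901 with DESeq2, 4 with the Y-linked class as a covariate and 15 among low-signal samples. They ranged from 95 to 1068 with 1 replicate left out (100, 106 and 1068 without knockouts 1, 2 and 3, and 132, 154 and 95 without controls 1, 2 and 3). The 2 members called became 0 with the covariate, 1 with all 12 samples in 1 fit and 1 to 4 with a replicate left out. The LDH covariate and low-signal fits both set the knockouts against control 3 alone, since no knockout shares the class of controls 1 and 2. The 19 calls of the Acly comparison became 11 without TMM, 32 without a filter, 247 with DESeq2, 0 with the covariate, 31 with all 12 samples, 70 among low-signal and 0 among high-signal samples, and 0 to 132 with a replicate left out (6, 132 and 6 without knockouts 1, 2 and 3, and 0, 1 and 0 without controls 1, 2 and 3). Its 0 members became 1 with DESeq2 and 0 to 1 with a replicate left out. The 23 calls of the difference became 213 with DESeq2, 6 with the covariate and 5 to 143 with a replicate left out, and its 0 members 1 with DESeq2. The cause was not tested. No LDH knockout had high Y-linked signal, so that fit was not run.

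The replicate block gave 8 calls in the Acly comparison and 5 in the difference, and changed no call of a member in the LDH, Acly or difference comparison. Same-numbered knockout and control libraries did not deviate together (correlations of 0.0491, -0.159 and 0.00619 in the LDH set, 0.00112, -0.215 and -0.222 in the Acly set). With 3 samples a group, these values cannot tell whether same-numbered samples share a litter.

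Directions of the members held in 164 of 170 values in the LDH, 168 of 180 in the Acly, 207 of 210 in the difference and 210 of 210 in the control comparison. In the LDH comparison Bgn reversed to -0.23 with the covariate, -0.23 among low-signal samples and -0.05 without control 2. Aspn reversed to 0.05 with the covariate and 0.06 among low-signal samples, and Fmod to -0.04 without control 2. The covariate and low-signal fits there both rest on control 3 alone, so they count the same contrast again. In the Acly comparison reversals were Chad at 0.03 without knockout 1, Bgn at 0.04, Fmod at 0.06 and Ogn at 0.04 without knockout 2, Omd at -0.05 without knockout 3, and Bgn at 0.01 and Fmod at 0.08 without control 2. Among low-signal samples, where knockout 1 is the only knockout, they were Bgn at 0.05, Fmod at 0.32, Ogn at 0.27 and Epyc at 0.09. Among high-signal samples, where control 2 is the only control, Omd reversed to -0.25. In the difference Bgn reversed to -0.01 with the covariate and -0.04 without LDH control 2, and Aspn to -0.07 without Acly knockout 2. With 1 replicate left out the values of reversed members ran from -0.05 to 0.39 (Bgn) and -0.04 to 0.50 (Fmod) in the LDH, -0.04 to 0.04 (Bgn), -0.30 to 0.08 (Fmod), -0.05 to 0.41 (Omd), -0.34 to 0.04 (Ogn) and -0.39 to 0.03 (Chad) in the Acly comparison, and -0.04 to 0.42 (Bgn) and -0.07 to 0.52 (Aspn) in the difference. Depth sets a floor of 0.107 to 0.114 CPM (3 counts), below Aspn at 1.96 to 3.58 CPM in the LDH set.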
